A study of Mus musculus with 4 samples.

Results

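The regions described here were called as accessible in both wild-type libraries of B16-F10 mouse melanoma cells and in exactly 1 of the 2 libraries of cells whose Ssbp4 gene was knocked out. They were found by merging the peak calls of 4 ATAC-seq libraries on chromosomes 1 to 19, X and Y wherever calls overlapped by at least 1 bp, and by noting which libraries had a call in each merged region. Of 72251 merged regions, 5966 (8.26%) had this pattern. They are set beside 1336 counterpart regions (1.85%) that were called in both knockout libraries and in exactly 1 wild-type library. Both sets were chosen by the presence and absence of calls in these 4 libraries, so their numbers and levels are a description and were not tested. With 2 libraries against 2, no two-sided permutation test across libraries could give a p below 0.33.

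B16-F10 is a melanoma line from C57BL/6 mice. Of the 4 libraries, 2 are labelled wild type and 2 knockout, the knockout cells having been electroporated with Cas9 nuclease and a mixture of guides against Ssbp4. A control guide, cutting between genes on chromosome 2, is named in the protocol, but not which cells received it. Whether the knockout cells were a clone or a pool, and whether replicates of a genotype were grown apart, is not stated either, and the spread between replicates may be technical.

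In ATAC-seq, the Tn5 transposase cuts and tags DNA that is not wrapped in nucleosomes, and reads pile up over active promoters, enhancers and insulators. A peak caller keeps a stretch of DNA when its pileup exceeds the local background by a set margin over a minimum length, so a region can drop out of a list because its signal fell, because the background rose or because the stretch above the margin became too short. SSBP4 belongs to a family of single-stranded DNA-binding proteins that bind and stabilise the LIM-domain-binding cofactors, which bridge enhancers and promoters through LIM-domain transcription factors. Genes and sequence could not be assigned to the regions, since the gene and promoter tables used here belong to GRCm38 and the calls to GRCm39. Regions are therefore named by position alone, and the labels of the knockout libraries were not checked at Ssbp4.

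The libraries differed in the length of their lists, in their shortest calls and in their background. Whether these differences set which calls were missing was not tested. The wild-type lists held 59215 and 63080 calls and the knockout lists 50068 and 57698, so knockout replicate 1 had the shortest list. Its shortest call was 380 bp long, against 338 bp in knockout replicate 2 and 337 and 307 bp in wild type. Calls under 380 bp made up 4.62% and 8.69% of the wild-type lists and 4.76% of the list of knockout replicate 2. The pileup at the genome-wide background, recovered from the deposited fold and p-value of each call, was 14.7 and 15.1 reads in wild type, against 17.2 and 17.4 for the knockout libraries. At that background, the lowest pileup called was 28 reads in each wild-type library, 31 in knockout replicate 1 and 32 in replicate 2.

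Most of the regions were missing in knockout replicate 1. It lacked the call in 4958 of the 5966 (83.1%, Wilson 95% interval 82.1–84.0, counting error only), and knockout replicate 2 lacked it in 1008. These were 10.1% and 2.24% of the regions called in the 3 other libraries. Among the counterparts the division was more even, with 770 missing in wild-type replicate 1 and 566 in wild-type replicate 2, or 1.72% and 1.27% of the regions called in the 3 other libraries. The absences of knockout replicate 2 mostly lay within those of replicate 1. Of the 55088 regions called in both wild-type libraries, knockout replicate 1 lacked 10080 and replicate 2 lacked 6130, and both lacked 5122. The 5122 were 83.6% of the absences of replicate 2 and 50.8% of those of replicate 1. These shares differ only in their base, as replicate 1 lacked more regions.

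These counts moved with the length of the lists. The regions outnumbered their counterparts 4.47 to 1, and 2.22 to 1 with lists cut to equal length, where 3592 regions had the pattern and 2793 of them were missing in knockout replicate 1. At a −log10 q of at least 5 the ratio was 6.90. Leaving out 1 knockout library changed the definition, because regions missing in both knockout libraries then also counted. Counterparts then needed a call in 1 knockout library instead of 2. Without knockout replicate 1, 6153 regions were missing in replicate 2 and the ratio was 1.86. Without knockout replicate 2, 10091 were missing in replicate 1 and the ratio was 5.14.

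Most of the regions were weakly accessible in the libraries that called them. Where knockout replicate 1 lacked the call, the median fold enrichment at the summit, the pileup over the local background as the authors deposited it, was 3.70 and 4.15 in wild-type replicates 1 and 2 and 2.93 in knockout replicate 2. Where knockout replicate 2 lacked it, the medians were 3.44 and 3.79 in wild type and 2.48 in knockout replicate 1. Regions called in all 4 libraries had medians of 7.45 and 8.28 in wild type, and of 5.12 and 6.01 for knockout replicates 1 and 2. Both kinds of region were thus lower than the shared regions in each library, and lower in the knockout library that kept the call than in wild type, as the shared regions also were.

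In reads, the median summit pileup of the regions missing in knockout replicate 1 was 66 and 77 in wild type and 61 in knockout replicate 2, and the interquartile range of the knockout values was 50 to 80. For the regions missing in knockout replicate 2 the medians were 62 and 68.5 in wild type and 48 in knockout replicate 1, with an interquartile range of 41 to 59. The pileup of the library without the call was not measured. The regions were short as well as weak, with a median length of 659 bp where replicate 1 lacked the call and 745 bp where replicate 2 did, against 1178 bp for shared regions. A merged region spans all its calls, so its length can grow with the number of libraries that called it. Regions missing in both knockout libraries were shorter still, at 543 bp, and also weak, with median folds of 3.44 and 3.78 in wild type.

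In most of the regions the signal of the 3 libraries with a call sat at nearly the same place. The summits lay within a median of 45 bp of each other in the regions missing in knockout replicate 1, and 76.7% had all 3 summits within 100 bp. Shared regions had a median of 44 bp over 4 summits. In the regions missing in knockout replicate 2 the median was 59 bp, and in the counterparts it was 71.5 bp where wild-type replicate 1 lacked the call and 145.5 bp where wild-type replicate 2 did.

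How often a region was missing in 1 knockout library fell from band to band up to band 9 with its wild-type strength. Each wild-type list was ranked by the p-value of its calls, and the regions called in both were divided into 10 rank bands of 10 percentile points each by the lower of their 2 rank percentiles, band 1 being the weakest. In band 1, 24.4% of 4362 regions were missing in knockout replicate 1 only, 6.28% in replicate 2 only and 33.9% in both, and 35.4% were called in all 4 libraries. In band 5 these shares were 9.47%, 1.34%, 7.23% and 82.0%. In band 7 they were 1.77%, 0.173%, 0.796% and 97.3%. Absence from replicate 2 alone was not seen above band 8, which held 1 such region, while absence from replicate 1 alone persisted at the top, in 6 regions of band 9 and 8 of band 10. Ranked by the knockout lists, the counterparts fell from 10.1% and 8.58% in band 1 to 0.369% and 0.0821% in band 5.

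**Figure D1:**
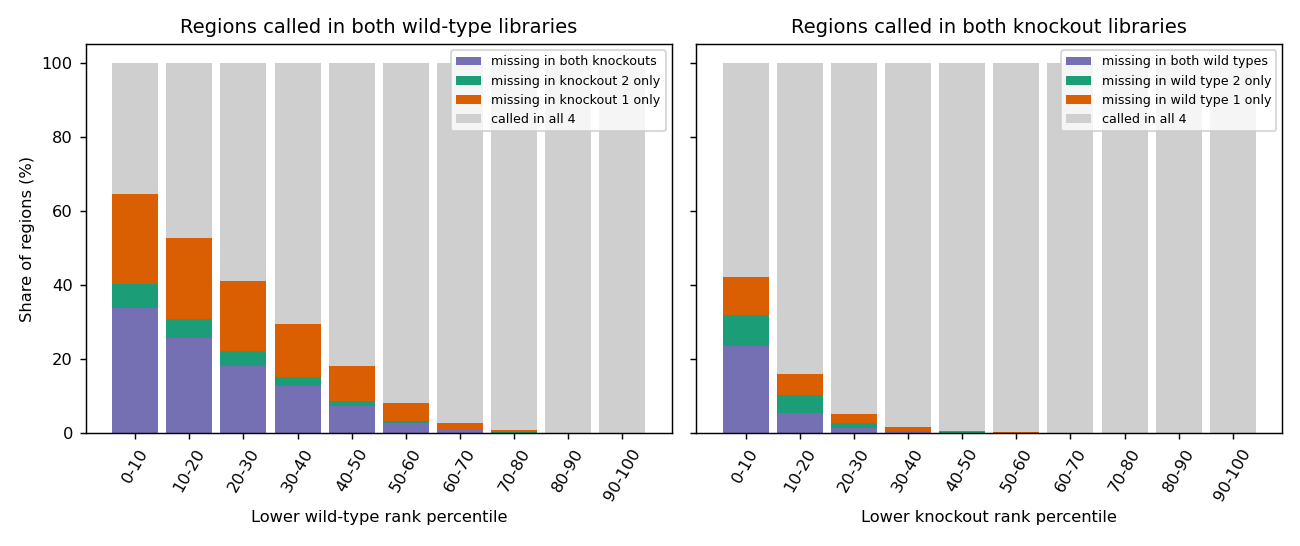
Share of regions (vertical axis, %) called in all 4 libraries or missing in 1 or both libraries of the other genotype, by rank band of 10 percentile points (horizontal axis; the lower percentile of the 2 libraries of a genotype). Left, regions called in both wild-type libraries, where 24.4% of band 1 were missing in knockout replicate 1 only; right, regions called in both knockout libraries.

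The share missing also varied with the length of the call. Among regions called in both wild-type libraries and in knockout replicate 2, 68.2% were missing in knockout replicate 1 where the call of replicate 2 was under 380 bp (859 of 1259), 44.6% at 380 bp to under 500, 18.5% at 500 to under 700, 4.07% at 700 to under 1000 and 0.536% at 1000 bp or more. Within calls of 500 bp to under 700, the share fell from 45.7% at a pileup under 50 reads to 2.69% at 200 or more. Within calls under 380 bp it was 68.8% at under 50 reads, 71.0%, 61.2% and 65.2% in the bins between, and 84.5% at 200 or more, a bin of only 58 regions. Such short calls are below the length of any call in knockout replicate 1, and the 400 shared regions among the 1259 had a longer call there. Every call of knockout replicate 1, in contrast, was longer than the shortest call of replicate 2. For absence from replicate 2, 11.9% of the regions with a replicate 1 call of 380 bp to under 500 were missing in replicate 2, and 0.213% of those of 1000 bp or more.

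**Figure D2:**
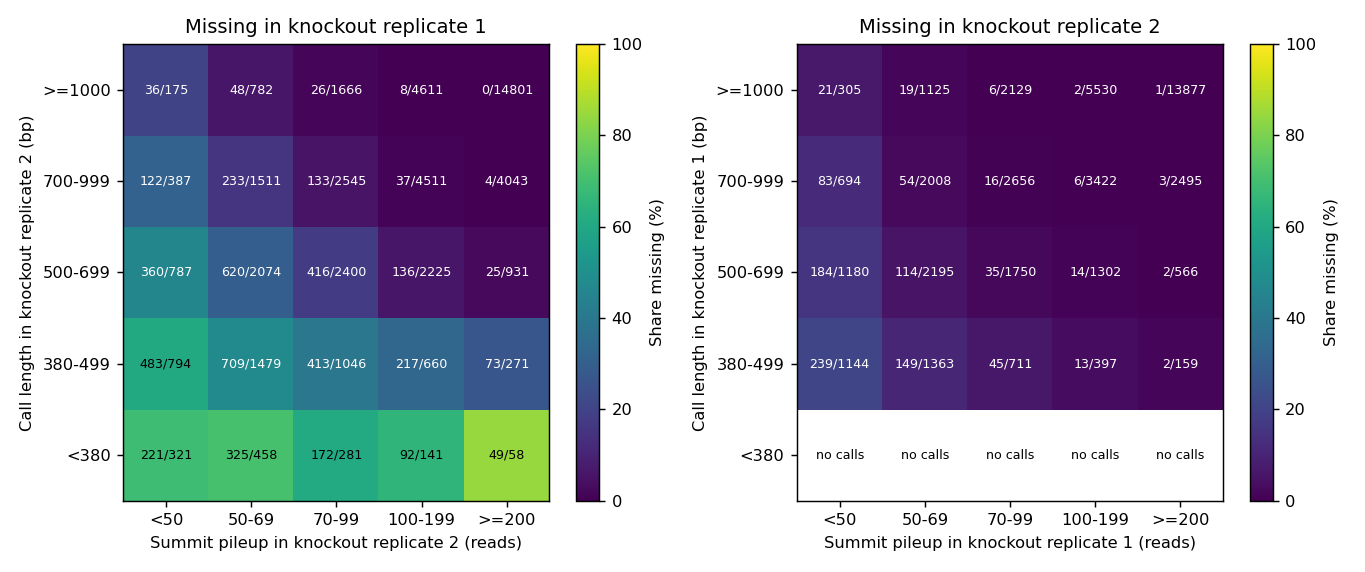
Share of regions missing in 1 knockout library (colour, %), by length of the call in the other knockout library (vertical axis, bp) and its summit pileup (horizontal axis, reads), among regions called in the 3 other libraries. Each cell gives regions missing over all regions; in the left panel the bottom row, calls shorter than 380 bp, keeps shares of 61.2 to 84.5% at every pileup.

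Few of the regions were strong, a term used here for regions above the 50th percentile of every list that had the call. There were 185 strong regions missing in knockout replicate 1 and 5 missing in replicate 2, against 3 and 0 strong counterparts. Among all regions called in at least 3 libraries, 47.5% were strong. All calls lay below the median of their lists in 85.9% of the regions missing in replicate 1 and in 92.6% of those missing in replicate 2. Of the 185 strong regions, 44 had a call under 380 bp in knockout replicate 2, and 11 of the 17 above the 75th percentile did. Such a call was present in 859 (17.3%) of all 4958 regions missing in replicate 1. Among the 24162 strong regions called in all 4 libraries, 13 had one. The strong count depended on the settings. It was 190 against 3 counterparts as reported, 124 against 1 at a −log10 q of at least 5, and 78 against 0 with lists of equal length. It was 329 against 43 where calls had to cover 50% of a region, and 364 against 144 in fixed-width windows. Limiting every list to calls of at least 380 bp, a setting chosen after the data were seen, gave 112 against 7. Leaving out 1 library changed the definition, and gave 196 to 647 strong regions. The 647, against 6 counterparts, came without knockout replicate 2, where regions missing in both knockout libraries also counted. The strength of those 647 rested on the wild-type calls alone.

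The highest-ranked regions missing in knockout replicate 1 were among the strongest calls of the other lists, and 6 of the 8 had a call under 380 bp in knockout replicate 2. At chr12:97028208-97028560, the pileup was 5003 and 4957 reads in wild-type replicates 1 and 2 and 4887 in knockout replicate 2, and the call was 353 bp long with the same edges in all 3 libraries. Only 4 of the 4958 regions had identical edges in the 3 lists. At chr9:123290865-123291247 the pileups were 2165, 2637 and 2538 reads, with calls of 379, 383 and 375 bp. Knockout replicate 2 was slightly below both wild-type libraries at the first and between them at the second, and knockout replicate 1 had no call within 198535 bp of the first and 3909 bp of the second.

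Further regions of the 8 were as narrow. The region chr9:35216518-35216886 had pileups of 2048 and 2423 reads in wild type and 2546 in knockout replicate 2, each from a call of 369 bp. At chr5:146197796-146198172 they were 1705, 2100 and 1898 reads, and at chr11:88972511-88972874 they were 1576, 1462 and 1984. The knockout value was the highest of the 3 at chr9:35216518-35216886 and at chr11:88972511-88972874, and lay between the wild-type values at the other. The region chr8:15569778-15570119, of 342 bp in each list, had 661, 834 and 731 reads.

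In 2 of the 8 the call of knockout replicate 2 was just over 380 bp. At chr8:84699031-84699790 the pileups were 1114 and 1596 reads in wild type and 1123 in knockout replicate 2, with a call of 386 bp there and of 760 bp in wild-type replicate 2. At chrX:168792583-168793183 they were 1397, 1772 and 1183 reads, with a call of 407 bp in the knockout and the nearest call of knockout replicate 1 only 392 bp away. Here the knockout was near or below the lower wild-type library. Local background was above the genome-wide level in 34.2 to 38.7% of all regions missing in knockout replicate 1, depending on the library. In regions called in all 4 libraries the range was 74.3 to 76.6%. At the 8 positions the local background was raised in the 3 libraries with a call, and was not measured in knockout replicate 1. It ran from 29.7 reads at chr8:15569778-15570119 to 273.3 at chr12:97028208-97028560 in wild-type replicate 1, against a genome-wide level of 14.7. Their sequence, and whether it is repeated in the genome, was not analysed here.

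At some strong regions with a longer call, the knockout library that called them was far below wild type. These were picked after their values were seen, as the largest drops among the 141 strong regions missing in knockout replicate 1 whose call in replicate 2 was at least 380 bp. At chr3:107032703-107033433 the pileup was 342 and 455 reads in wild type and 114 in knockout replicate 2, with folds of 13.4, 16.1 and 6.23. At chr3:61552725-61553550 it was 381 and 410 reads in wild type and 117 in the knockout. Both wild-type libraries were well above the knockout library at these positions, and at chr3:61552725-61553550 the calls were 821 and 800 bp long in wild type and 610 bp in the knockout.

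The next largest drops, picked in the same way, were smaller. At chr18:4939891-4940832 the pileups were 285 and 335 reads in wild type and 120 in knockout replicate 2. At chr16:85655307-85656148 the pileups were 228, 266 and 103 reads, at chr10:7480658-7481330 they were 421, 546 and 216, and at chr1:135997398-135998195 they were 320, 335 and 148. In each, both wild-type libraries exceeded the knockout library, and the regions were chosen for such a drop. The nearest call of knockout replicate 1 was 15747, 3577 and 5204 bp away at the last 3.

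The knockout library that kept a call can be compared with wild type over all the regions. Pileups were not scaled for depth, and those of the knockout libraries were mostly below wild type. Where all 4 libraries had a call, the median log2 ratio to the mean of the wild-type libraries was -0.22 in knockout replicate 2 and -0.52 in replicate 1. In the same regions the median was -0.21 for wild-type replicate 1 over wild-type replicate 2. It was -0.30 for knockout replicate 1 over knockout replicate 2. In these unscaled pileups, replicates of a genotype thus differed about as much as knockout replicate 2 differed from wild type. Knockout replicate 1 differed from wild type by more. The median folds of these shared regions over local background were 7.45 and 8.28 in wild type. In knockout replicates 1 and 2 they were 5.12 and 6.01. Among the regions missing in replicate 1, the ratio of replicate 2 to the wild-type mean was -0.18. Among those missing in replicate 2, the ratio of replicate 1 to that mean was -0.39. Both medians were thus above those of the shared regions. Within rank bands 1 to 8 the order was the other way for the regions missing in replicate 1, and within bands 1 to 7 for those missing in replicate 2. Both lie mostly in the weak bands, where the ratio was higher in shared regions too.

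In bands 6, 7 and 8 by wild-type rank, the median ratio of knockout replicate 2 was -0.65, -0.75 and -1.0 in the 278, 102 and 33 regions missing in replicate 1. In shared regions of the same bands it was -0.25, -0.30 and -0.30. In the 30 regions of band 6 that were missing in knockout replicate 2, the ratio of replicate 1 was -1.11, against -0.58 in shared regions. The replicate that kept the call was thus further below wild type than in shared regions of these bands. In bands 9 and 10, with only 6 and 8 regions, the ratio of replicate 2 was -0.09 and -0.01, against -0.27 and -0.22. A drop below -1 was measured in 15 of the 185 strong regions missing in replicate 1 (8.11%) and in 403 of the 24162 strong shared regions (1.67%). These values come from the contrast that chose the regions and were not tested.

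**Figure D3:**
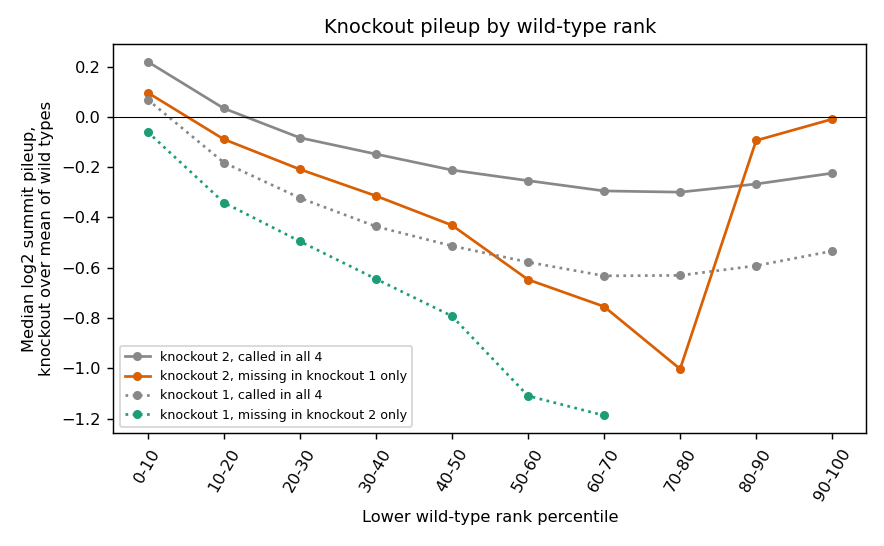
Median log2 ratio of the summit pileup in 1 knockout library to the mean of the wild-type libraries (vertical axis, mean taken on the log scale), by band of wild-type rank (horizontal axis); points rest on at least 5 regions. Coloured lines, regions missing in the other knockout library; grey lines, regions called in all 4 libraries. The regions missing in knockout replicate 1 reach -1.0 in band 8 and lie at -0.01 in band 10, where there are 8.

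**Figure D4:**
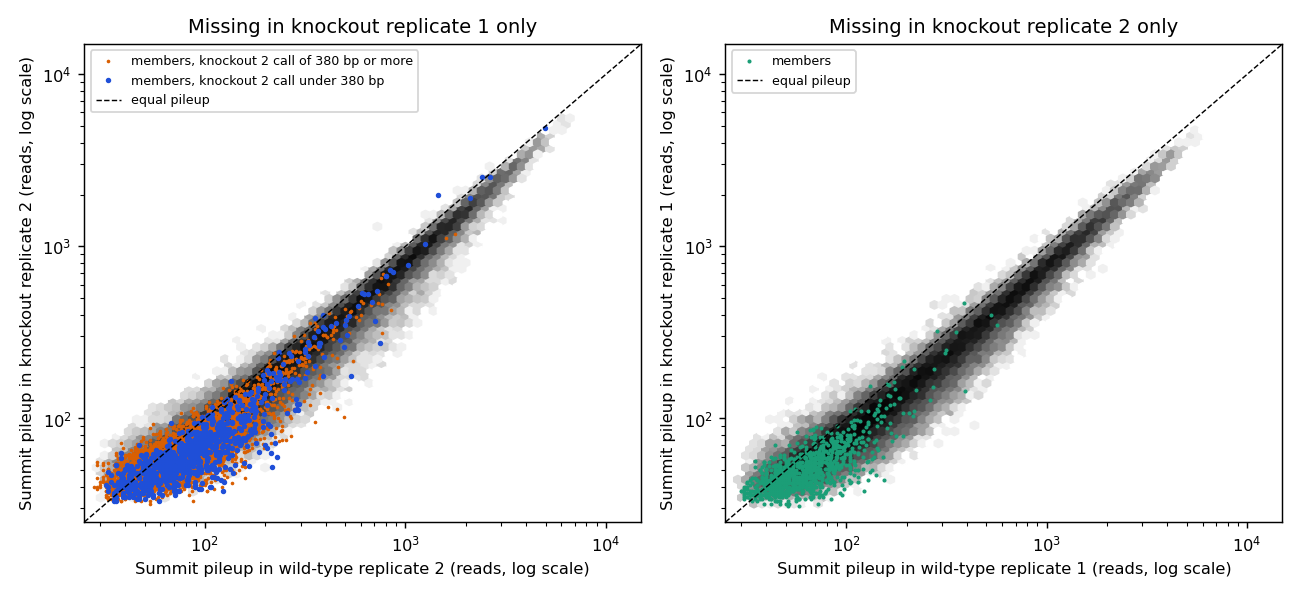
Summit pileup in the knockout library that kept the call (vertical axis) against a wild-type library (horizontal axis), in reads on log scales. Grey shading, regions called in all 4 libraries, the highest of which lie beyond the axes; points, regions missing in knockout replicate 1 only (left, with calls under 380 bp in blue) or in replicate 2 only (right). In the left panel the points above 1000 reads lie on both sides of the line of equal pileup, from 1772 and 1183 reads to 1462 and 1984, with the region of 4957 and 4887 reads at the top.

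The 8 highest-ranked regions missing in knockout replicate 2 were 516 to 1462 bp long and mostly had lower pileups. The first was chr16:21542868-21543519, with pileups of 391 and 462 reads in wild type and 145 in knockout replicate 1. At chr12:81654592-81655107 they were 166, 208 and 119 reads, and at chr14:116790495-116791082 they were 143, 160 and 99. The knockout library lay below both wild-type libraries at all of these, and at chr4:133481573-133482095 (527, 715 and 402 reads), chr11:72337072-72338225 (186, 227 and 132 reads) and chr11:5483001-5483617 (183, 222 and 131 reads).

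On chromosome 18, the region 54589000 to 54589714 had 166 and 191 reads in wild type and 94 in knockout replicate 1. The exception among the 8 was chr4:3061132-3062593, near the centromeric end of the chromosome, where knockout replicate 1 had 466 reads against 388 and 364 in wild type over a local background of 177 reads. The nearest call of knockout replicate 2 was 788 bp away. No region missing in replicate 2 was above the 75th percentile of all 3 lists.

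The counterparts were also weak, with median folds of 3.04 in wild-type replicate 2, 2.47 in knockout replicate 1 and 2.76 in replicate 2 where wild-type replicate 1 lacked the call. Where wild-type replicate 2 lacked it they were 2.55, 2.37 and 2.55 in wild-type replicate 1 and knockout replicates 1 and 2. The strongest missing in wild-type replicate 1 was chr14:21709344-21710157, with folds of 8.12 in wild-type replicate 2 and 6.16 and 6.40 in the knockout. At chr2:32445461-32445869 the pileups were 362, 226 and 254 reads, and at chr1:152691003-152691407 they were 243, 154 and 184. Wild-type replicate 2 was thus above both knockout libraries at these counterparts, as it was at chr7:141651359-141651839 (275, 197 and 264 reads).

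Among the regions missing in wild-type replicate 2, chr5:36818238-36818910 had 106 reads in wild-type replicate 1 against 210 and 162 in knockout replicates 1 and 2, with folds of 6.83, 11.6 and 8.83. Both knockout libraries exceeded the wild-type library there. At chr6:148841628-148842189 the values were 163, 137 and 178 reads, and at chr16:37767540-37768103 they were 103, 98 and 95. Wild-type replicate 1 lay between the knockout libraries at the first of these and slightly above both at the second. At chr9:3030662-3031323 there were 649, 1044 and 893 reads over local backgrounds of 361, 641 and 501, and folds of only 1.80, 1.63 and 1.78.

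The share of such regions was similar from chromosome to chromosome. On the 20 chromosomes other than Y they made up 9.46 to 11.9% of the regions called in both wild-type libraries, with a median of 10.8%. Chromosome 8 had the highest share (337 of 2831) and X the lowest (82 of 867). Chromosome Y had 2 of 24. The counterparts varied more, from 1.00% of the regions of both knockout libraries on X to 5.19% on chromosome 6. Chromosome 6 held 13.9% of the counterparts (186) but 7.26% of the regions missing in 1 knockout library (433), close to its 7.28% of the shared regions. Knockout replicate 1 was the library without the call in 75.6% (chromosome 12) to 90.2% (X) of the regions of each chromosome.

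**Figure D5:**
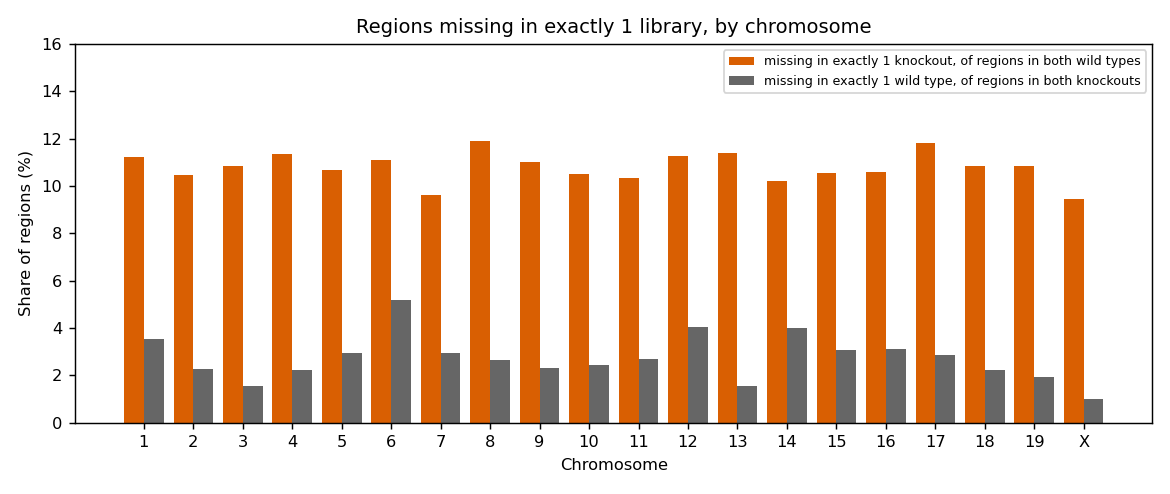
Share of regions (vertical axis, %) missing in exactly 1 knockout library, among those called in both wild-type libraries (orange), and missing in exactly 1 wild-type library, among those called in both knockout libraries (grey), for chromosomes 1 to 19 and X (horizontal axis). The orange bars lie between 9.46 and 11.9%, and the grey bar of chromosome 6 is the highest grey bar, at 5.19%.

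Neighbouring regions were compared with the merged set. The next region along the chromosome was also missing in knockout replicate 1 alone in 7.0% of cases, while such regions were 6.86% of the merged set. A neighbour missing in both knockout libraries was found beside 13.5% of them, as beside 13.5% of all regions. For the regions missing in knockout replicate 2 alone, the next region was of the same kind in 1.88% of cases (19 regions), against 1.4% of the merged set, and 15.0% had a neighbour missing in both knockout libraries. These shares were not tested. The distance to the nearest region called in all 4 libraries had a median of 9262 bp (replicate 1 missing) and 9567 bp (replicate 2 missing), against 8741 bp between shared regions. The regions fell in 1751 of the 2369 megabases with a call in both wild-type libraries, and the fullest, on chromosome 8 from 124 to 125 Mb, held 20 of 116.

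Few of the regions had a call of the missing library nearby. In all, 69 of the 4958 regions (1.39%) missing in knockout replicate 1 and 16 of the 1008 (1.59%) missing in replicate 2 had such a call within 500 bp. A shared region lay within that distance of 1.47% and 1.29% of them, respectively, and of 1.22% of the shared regions. The closest misses were chr2:158151235-158152167 and chr3:78968694-78969431, 18 and 23 bp from a call of knockout replicate 1, and chr2:32786686-32788234, 24 bp from one of replicate 2. Just outside the rule, 7 of the 44000 regions called in all 4 libraries had a knockout call that met no wild-type call directly and was joined by another call between them, as at chr1:135394690-135396058, chr10:38991512-38992839 and chr12:87731243-87732718. By significance, the regions nearest the limit were chr19:3362546-3363704 and chr9:48505365-48505878, where knockout replicate 1 had 31 reads and a −log10 q of 1.33. At chr11:75091875-75092696 wild-type replicate 2 had 28 reads and a −log10 q of 1.34.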

How the data were processed

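ATAC-seq peak lists of 4 B16-F10 libraries were used, 1 list per library. The submitters' processing notes name MACS2 and GRCm39. For the aligner, tool versions, duplicate removal and Tn5 shift, no detail is given in the sources used here. The authors deposited for each call a display score, not used here, the fold enrichment of its summit, a ratio to the local background of the same library, and the −log10 p-value and −log10 q-value. The lowest −log10 q-values were 1.30 to 1.33, close to a q of 0.05. All of these are values of single peaks and move with depth.

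Positions were converted to 1-based coordinates and calls merged with pandas 2.3.3 and numpy 2.4.6. Where a library had several calls in a region, the most significant was used. Pileup and background were recovered from the fold, (pileup + 1) over (background + 1), and the Poisson p-value (scipy 1.17.1). In each list, at least 99.998% of recovered pileups lay within 0.05 of a whole number. Read totals were not used, so the depth per library is unknown. Merging, pattern calls and recovery were checked on simulated data.

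The regions and the rules were chosen with earlier results of these data known. Named regions were the 8 of highest rank (lowest percentile over the 3 calling libraries) missing in each knockout library, the 4 such counterparts missing in each wild-type library, and 3 at each edge of the rule. The largest drops and the division at 380 bp were chosen after the values were seen. No gene, promoter or motif was assigned, since the tables used here belong to another build, GRCm38. Alternatives were a stricter q, equal lists, 50% coverage, windows of 501 bp around summits, all sequences but the mitochondrial genome, a 75th percentile for strong calls and leaving out each library.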

Additional observations from a re-analysis of the deposited data

Results flagged for a closer look

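The comparisons leave out the unplaced and unlocalised sequences. On 23 of them there were 172 merged regions, 90 of which were called in all 4 libraries. Of the 172, 14 were called in both knockout libraries and exactly 1 wild-type library. That was above the 7 called in both wild-type libraries and exactly 1 knockout library, the reverse of the order on the chromosomes. Of the 14, 13 were missing in wild-type replicate 2. On these sequences the wild-type lists held 126 and 117 calls, against 137 and 148 for the knockout lists.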

How the results depend on the processing

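Of 102 values recomputed under the alternatives, 67 stayed close to the reported value and 35 moved. Close meant within 1.5 times for counts and ratios. For median folds and ranks it meant within the standard deviation of the values of the 2 libraries of a genotype. For the median length, the standard deviation was between the regions missing in knockout replicate 1 and those missing in replicate 2. With lists of equal length there were 3592 regions missing in 1 knockout library, 2793 of them in knockout replicate 1. The ratio to the counterparts was 2.22, and strong regions numbered 78 and strong counterparts 0. The median folds then were 4.46 and 5.12 in wild type and 3.52 in knockout replicate 2, and the median rank percentile in wild-type replicate 2 was 21.2; fewer weak calls enter by construction. With a −log10 q of at least 5 there were 827 counterparts, a ratio of 6.90, 124 strong regions and 1 strong counterpart. With calls counted only if they covered 50% of the merged region, strong regions numbered 329 and strong counterparts 43, and the median rank percentiles in wild type were 26.7 and 30.6. In fixed-width windows the strong numbers were 364 and 144, and above the 75th percentile 17 and 0. Limiting every list to calls of at least 380 bp, chosen after seeing the data, gave 4663 regions, of which 4336 overlapped reported ones, with 112 strong regions and 7 strong counterparts. Together with equal lists it gave 3219 regions, 2281 missing in knockout replicate 1, a ratio of 2.02 and 59 strong regions. Where no cause is named, the cause was not tested.

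Leaving out 1 library changes the definition. The regions then numbered 6153 to 10091, the counterparts 1665 to 3310, the ratio ran from 1.86 to 5.14, the strong regions from 196 to 647 and the strong counterparts from 5 to 17. The highest numbers of regions and strong regions came without knockout replicate 2, and the highest numbers of counterparts and the lowest ratio without knockout replicate 1. Which knockout library lacked the call cannot be asked without 1 of them. No paired analysis was possible because the counts come from no test across libraries. The distance to gene starts was not run, since no annotation of the build was used. Read numbers were not used, so an absent call means only that no stretch met the limits of that list, not that the chromatin was closed.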
